A study of Mus musculus with 12 samples.

Results

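Levels of 7 forkhead genes and the long noncoding RNA Fendrr were followed through 4 cell types sorted from the mouse embryo at stage E7.25. The 8 genes are Foxf1, Foxf2, Foxc1, Foxc2, Foxl1, Foxh1, Foxp1 and Fendrr, taken by symbol from the 38924 genes of the deposited count files. All 8 were found, and 6 passed the filter on low counts that left 14170 genes for testing, whereas Foxf2 and Foxl1 did not. The 8 were chosen with their levels in these cells already known. Their levels and the differences between cell types are therefore given as a description, with the spread between libraries, and the threshold counts beside them support nothing.

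All embryos carried Foxa2Cre and the Rosa26-YFP reporter, in which Cre turns on a yellow fluorescent protein, so that cells with present or past Foxa2 activity, and their descendants, fluoresce. Cardiac mesoderm was split into a Foxa2Cre:YFP+ fraction, called ventricular in the labels, and a Foxa2Cre:YFP- fraction, called non-ventricular. The other sorted cells were EPCAM+ endoderm and KDR+ hematopoietic mesoderm. Each type had 3 libraries of amplified total RNA. The labels name no treatment, and every group carried the reporter alleles. The labels do not say whether the 3 libraries of a type came from separate embryos or litters, so every test measures only the spread between these libraries, which may be technical.

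Forkhead proteins are transcription factors that share a winged-helix DNA-binding domain. Foxf1 is a factor of lateral plate and extraembryonic mesoderm that is needed for the allantois and yolk sac vessels, and its paralog Foxf2 acts mainly in later gut and craniofacial mesenchyme. Foxc1 and Foxc2 are paralogs known from paraxial mesoderm, somites and the heart's outflow region. Foxl1 marks gut mesenchyme later in development, Foxh1 carries Nodal signals to DNA as a partner of Smad proteins, and Foxp1 is a broadly expressed repressor with roles in the myocardium and in lymphocytes. Fendrr is a noncoding RNA of lateral mesoderm that starts beside Foxf1 and runs the opposite way. It has been reported to bind Polycomb and Trithorax-type chromatin complexes.

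4 of the genes lie in a cluster on chromosome 8 and a pair lies on chromosome 13 (GRCm38 coordinates). On chromosome 8 the order is Fendrr (chr8:121054882-121083110, minus strand, 7 merged exons), Foxf1 (chr8:121084386-121088144, plus strand, 2 exons), Foxc2 (chr8:121116171-121118895, plus strand, 1 exon) and Foxl1 (chr8:121127940-121130644, plus strand, 1 exon). The annotated ends of Fendrr and Foxf1 that face each other are 1275 bases apart. Foxf1 and Foxc2 are separated by 28026 bases, and Foxc2 and Foxl1 by 9044 bases. On chromosome 13, Foxf2 (chr13:31625816-31631403) and Foxc1 (chr13:31806633-31812476), both on the plus strand, are 175229 bases apart. Foxh1 lies at chr15:76668225-76669948 on the minus strand, and Foxp1, with 34 merged exons, spans chr6:98925338-99522721 on the minus strand.

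The window from 250 bases before to 50 bases after the start of Fendrr is shown because it faces Foxf1 and because the levels of these 2 genes are compared below. It was taken from RefSeq (GRCm38.p6, chr8:121083061-121083360, minus strand) and is written 5′ to 3′ along the transcript. Capitals mark its match to a forkhead motif.

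Fendrr: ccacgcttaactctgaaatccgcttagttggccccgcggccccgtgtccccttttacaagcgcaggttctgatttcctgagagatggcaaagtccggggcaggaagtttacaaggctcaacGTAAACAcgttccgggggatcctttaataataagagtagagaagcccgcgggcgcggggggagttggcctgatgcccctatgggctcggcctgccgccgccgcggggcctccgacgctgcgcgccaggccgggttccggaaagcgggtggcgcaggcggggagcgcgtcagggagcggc

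The motif searched was TGTTTAC on both strands, so that the capitals read GTAAACA on the strand shown. Its first base lies at position -129 from the start. The same motif was present in 3.65% of 32851 promoter windows of 300 bases. The Fendrr window had a GC content of 64.7% and 31 CpG dinucleotides, against medians of 52.7% and 7 over all windows. Foxc1, Foxf2 and Foxp1 had 5 further windows in the same table, and none of those held this motif in either orientation. Such matches describe letters in a window and say nothing of binding.

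The paralogs share stretches of coding sequence, which bears on how reads are assigned, and the longest exact runs are shown for that reason. Capitals are not used in them.

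Foxf1 and Foxf2: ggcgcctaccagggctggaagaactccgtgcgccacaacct
Foxc1 and Foxc2: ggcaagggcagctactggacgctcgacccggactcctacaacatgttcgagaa

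The run of 41 bases begins at base 259 of the 1134 coding bases of Foxf1 and at base 415 of the 1338 of Foxf2. The run of 53 bases begins at base 439 of the 1659 coding bases of Foxc1 and at base 418 of the 1482 of Foxc2. Of all distinct windows of 31 bases in the annotated transcripts, 2.89% of those of Foxf1, 3.57% of Foxf2, 0.636% of Foxc1 and 1.37% of Foxc2 also occurred in transcripts of another gene. For Foxf1 and Foxf2 most of these windows lay in Gm27530 and Gm27516, gene models that overlap their exons and had 0 counts in every library, and for Foxc1 and Foxc2 most lay in the paralog. That share was 0.888% for Fendrr and 0.0% for Foxh1. For Foxp1 it was 2.73%, mostly in Gm20696, a gene model that overlaps its exons and whose reads may not be separable from its own.

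Library totals ran from 4472800 to 7888631 counts in genes, which were 18.26% to 21.52% of all tallied reads. Levels are CPM, each gene's count relative to the library's total after scaling by the TMM method, and 3 counts, taken as the floor of detection, stood at 0.355 to 0.720 CPM. The sort genes followed their labels: Epcam averaged 220 ± 18.4 CPM (SD, n = 3) in endoderm and 22.5 to 34.8 CPM elsewhere, and Kdr averaged 774 ± 163 CPM in hematopoietic mesoderm, 489 to 538 CPM in the cardiac fractions and 10.4 CPM in endoderm. Pdgfra, also taken as a sort gene, stood at 203 to 386 CPM in the cardiac libraries. It averaged 13.8 CPM in endoderm and 27.2 CPM in hematopoietic mesoderm, and it is among the cardiac markers summed below. Foxa2 was at 0.415, 0 and 5.90 CPM in the 3 YFP+ cardiac libraries and at 0 in every YFP- one. The summed level of 12 cardiac mesoderm markers was 1418 to 1547 CPM in the YFP+ and 1012 to 1209 CPM in the YFP- fraction, with Tnnt2 at 0 in all YFP+ and Mab21l2 at 0 in all YFP- libraries. It was 171 to 242 CPM in endoderm. The summed level of 16 blood and endothelium markers was 1686 to 2996 CPM in hematopoietic mesoderm and at most 420 CPM elsewhere, and that of 14 endoderm markers was 2837 to 6186 CPM in endoderm and at most 204 CPM elsewhere.

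2 libraries stood apart from the rest of their type in these lists. Hematopoietic replicate 3 had 860 CPM of cardiac markers, against 434 and 430 CPM in replicates 1 and 2, and 1084 CPM of the 8 epiblast and primitive streak markers, against 382 and 280 CPM. Its blood and endothelium markers summed to 1686 CPM, against 2523 and 2996 CPM. Tbx20 and Gata4, which are also on the lateral plate list used below, held 516 and 254 CPM of its cardiac sum. Pdgfra, Isl1, Smarcd3 and Tnnt2 were also higher there than in replicates 1 and 2. Mesp1, Tbx5 and Mef2c were at 0 in that library, and Nkx2-5 and Myl7 at 0.628 and 1.26 CPM. The higher sum was therefore not shared by all cardiac markers. YFP+ cardiac replicate 3 had 174 CPM of endoderm markers, against 78.4 and 87.2 CPM in the other libraries of the fraction, and 580 CPM of the 6 allantois and extraembryonic mesoderm markers, against 1001 and 1166 CPM. Of those 6, Postn and Vcam1 were at 0 in all cardiac libraries. Of the endoderm markers, Cdh1, Epcam and Cldn6 were at 59.0, 39.3 and 21.0 CPM in YFP+ replicate 3. In the other YFP+ libraries they were at most at 5.39, 16.9 and 6.43 CPM. Apob and Sox17, at 28.8 and 1.66 CPM in replicate 3, reached 59.6 and 33.4 CPM in another YFP+ library. The higher endoderm sum was therefore not shared by all endoderm markers. Epiblast and primitive streak markers summed to 799, 543 and 1020 CPM in YFP+ replicates 1 to 3. Leaving out hematopoietic replicate 3 moved many of the comparisons with hematopoietic mesoderm, and those values are given beside the results.

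Foxf1 was high in both cardiac fractions and low or undetected in the other cells. It stood at 154, 161 and 56.1 CPM in the YFP+ cardiac libraries and at 174, 211 and 128 CPM in the YFP- libraries. In endoderm it was at 2.38, 0.129 and 0.592 CPM, and in hematopoietic mesoderm at 0.960, 7.08 and 3.98 CPM. Every cardiac library was above every endoderm and hematopoietic library, and the low YFP+ value came from replicate 3. The means were 124 ± 58.6 CPM (SD, n = 3) and 171 ± 41.5 CPM in the YFP+ and YFP- fractions, 1.03 ± 1.19 CPM in endoderm and 4.0 ± 3.06 CPM in hematopoietic mesoderm. The mean was 120-fold higher in the YFP+ fraction and 166-fold higher in the YFP- fraction than in endoderm, and the fitted log2 differences were 6.93 ± 0.95 (SE) and 7.40 ± 0.97. Against hematopoietic mesoderm the means were 30.9-fold and 42.7-fold higher, with log2 differences of 4.92 ± 0.85 and 5.39 ± 0.87. In these sorted pools, fewer cells that express a gene and less RNA of it per cell cannot be told apart.

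Between the cardiac fractions the Foxf1 libraries overlapped, with a log2 difference, YFP+ minus YFP-, of -0.47 ± 0.71. The 3 YFP+ libraries ordered as their allantois and extraembryonic marker sums did, the lowest of both being replicate 3. Of that list, Ahnak was at 500, 659 and 184 CPM in YFP+ replicates 1 to 3. Bmp4 was at 107.6, 188.5 and 94.4 CPM, and Hand1 at 382, 318 and 301.5 CPM. The same sum was 687 to 1056 CPM in hematopoietic mesoderm, where Foxf1 was at most at 7.08 CPM. The part of such cells in the Foxf1 level was not tested. Without YFP+ replicate 3 the log2 difference between the fractions was -0.12.

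**Figure D1:**
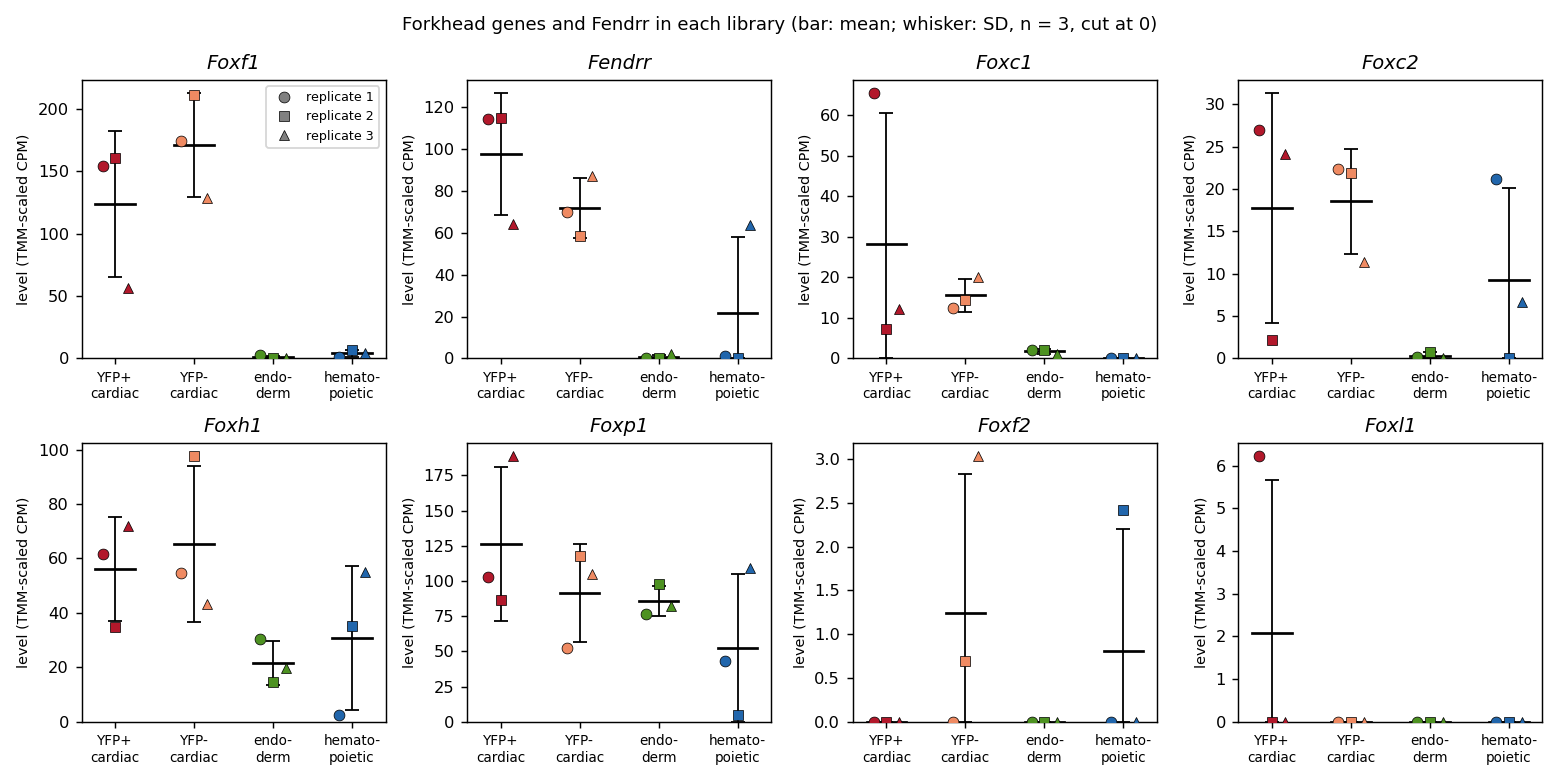
Level of each of the 8 genes (TMM-scaled CPM, linear axis from 0) in the 12 libraries, with symbols for replicates 1 to 3, a bar for the mean and a whisker for the SD of the 3 libraries of a type. Foxf1 lies above 56 CPM in all 6 cardiac libraries and at most at 7.08 CPM in the other 6, while Fendrr is also at 63.6 CPM in hematopoietic replicate 3.

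Foxf2, the paralog of Foxf1, was close to undetected. It had 0 counts in all YFP+ cardiac and all endoderm libraries, which at this depth allows up to 0.622 CPM in the shallowest of the YFP+ libraries. The YFP- cardiac libraries had 0, 5 and 21 counts, and hematopoietic mesoderm had 0, 14 and 0. The highest level was 3.03 CPM, in YFP- cardiac replicate 3. In the 6 cardiac libraries, where Foxf1 was abundant, its paralog was thus low or undetected.

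Fendrr, the divergent neighbour of Foxf1, was high in the cardiac libraries as well. It stood at 114, 115 and 64.0 CPM in the YFP+ libraries and at 70.0, 58.4 and 87.2 CPM in the YFP- libraries. In endoderm it was at 0, 0.129 and 1.90 CPM. In hematopoietic mesoderm it was at 1.2, 0.345 and 63.6 CPM, so that 1 library there reached the cardiac range and the other 2 were near the floor. The cardiac means of 97.6 ± 29.1 CPM (SD, n = 3) in the YFP+ and 71.8 ± 14.5 CPM in the YFP- fraction were 145-fold and 106-fold above the endoderm mean of 0.675 ± 1.06 CPM. The fitted log2 differences from endoderm were 7.08 ± 1.76 (SE) and 6.64 ± 1.73. Between the fractions the libraries overlapped, with a log2 difference of 0.44 ± 1.32.

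The comparison of Fendrr with hematopoietic mesoderm turned on replicate 3 of that type. With it, the mean there was 21.7 ± 36.3 CPM (SD, n = 3) and the log2 differences were 2.17 ± 1.38 (SE) for the YFP+ and 1.73 ± 1.36 for the YFP- fraction. Without it, they were 7.01 and 6.57, and the difference between endoderm and hematopoietic mesoderm moved from -4.91 to -0.06. In that library Fendrr had 304 counts, against 5 and 2 in the others. Of the 8922 genes that reached 100 counts in a hematopoietic library, 15.0% had 3 counts or fewer in another library of the type, and Fendrr was among them. The same library had 361 CPM of Mixl1 and 263 CPM of Eomes, both primitive streak genes, against at most 50.7 and 49.2 CPM in the other 2 hematopoietic libraries. The cardiac libraries also had 146 to 351 CPM of Mixl1 and 310 to 487 CPM of Eomes. Of the same marker list, T and Fst were raised in that hematopoietic library too. Pou5f1 and Utf1, at 0.209 CPM, Nanog, at 0, and Wnt3, at 5.65 CPM, were not. The part of other cell types in the Fendrr level of that library was not tested.

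Fendrr and Foxf1 did not keep a fixed proportion. For each Foxf1 count there were 0.741, 0.714 and 1.14 Fendrr counts in the YFP+ cardiac libraries and 0.403, 0.277 and 0.679 in the YFP- libraries. All YFP+ ratios were above all YFP- ratios, by a narrow margin between 0.714 and 0.679. Hematopoietic replicate 3 had 16 Fendrr counts for each Foxf1 count, from 304 and 19 counts, a proportion outside the range of the cardiac libraries. It therefore carried Fendrr at a cardiac level with Foxf1 at 3.98 CPM, within the range of the other hematopoietic libraries. Endoderm replicate 3 had 16 Fendrr and 5 Foxf1 counts, too few for a steady ratio.

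**Figure D2:**
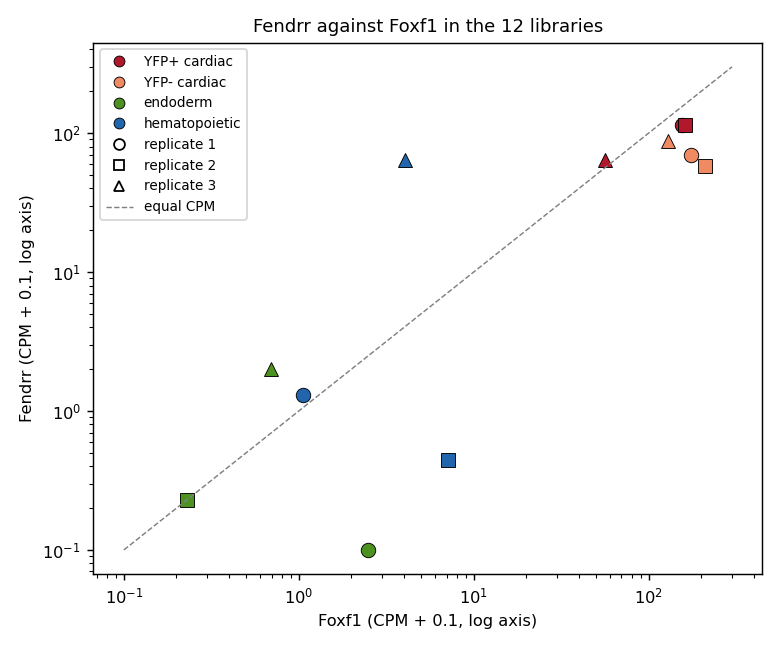
Fendrr against Foxf1 in each library (CPM + 0.1 on log axes), coloured by cell type, with symbols for replicates and a dashed line where both are equal. The 6 cardiac libraries lie together at the upper right, and hematopoietic replicate 3 stands alone at 3.98 CPM of Foxf1 and 63.6 CPM of Fendrr.

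Other genes of the Foxf1 and Fendrr region were low. Foxl1 had 30 counts in YFP+ cardiac replicate 1, or 6.22 CPM, and 0 counts in each of the other 11 libraries. Mthfsd, a nearby folate enzyme gene, averaged 17.1 ± 14.4 and 22.9 ± 6.83 CPM (SD, n = 3) in the YFP+ and YFP- fractions, 11.6 ± 3.88 CPM in endoderm and 10.8 ± 18.3 CPM in hematopoietic mesoderm. Gm20388, a read-through gene model that spans the cluster, had 0 counts in every library. The Mthfsd libraries of YFP+ cardiac mesoderm overlapped with those of endoderm, while all YFP- cardiac libraries, at 16.6 to 30.2 CPM, lay above the endoderm libraries, at 8.0 to 15.7 CPM. Its hematopoietic libraries, at 0.480, 31.9 and 0 CPM, overlapped with those of each other type.

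Foxc1 was detected in every cardiac and endoderm library and in no hematopoietic one. It stood at 65.5, 7.27 and 12.2 CPM in the YFP+ cardiac libraries, at 12.4, 14.4 and 20.2 CPM in the YFP- libraries and at 2.06, 2.06 and 1.07 CPM in endoderm. All 3 hematopoietic libraries had 0 counts. The type means were 28.3 ± 32.3, 15.7 ± 4.08 and 1.73 ± 0.575 CPM (SD, n = 3). Against the floor of 3 counts per hematopoietic library, the YFP+ mean was at least 45.5-fold higher, and without YFP+ replicate 1, where it was 9.72 CPM, at least 15.6-fold higher. By the same bound the YFP- mean was at least 25.2-fold and the endoderm mean at least 2.78-fold higher. The cardiac libraries did not overlap with endoderm, and the log2 differences were 4.02 ± 1.19 (SE) for the YFP+ and 3.16 ± 1.14 for the YFP- fraction.

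The YFP+ mean of Foxc1 rested on 1 library. The log2 difference between the fractions was 0.85 ± 1.06 (SE) with all libraries and -0.69 without YFP+ replicate 1, and the difference from endoderm fell to 2.48. That library also held all counts of Foxl1, and it had 67.6 CPM of Gmds, a GDP-mannose dehydratase gene near Foxc1, against 0.182 and 4.98 CPM in the other YFP+ libraries. Gmds averaged 11.3 ± 5.6 CPM (SD, n = 3) in the YFP- fraction, 4.0 ± 1.43 CPM in endoderm and 6.66 ± 6.98 CPM in hematopoietic mesoderm. Foxq1, a forkhead gene near Foxf2, was at 0 in all cardiac libraries and averaged 8.60 ± 9.69 CPM in endoderm and 5.66 ± 7.55 CPM in hematopoietic mesoderm, where replicate 3 had 14.2 CPM and the others 0 and 2.76 CPM.

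Foxc2, unlike Foxc1, had counts in hematopoietic libraries. It stood at 27.0, 2.18 and 24.2 CPM in the YFP+ cardiac libraries and at 22.4, 21.9 and 11.4 CPM in the YFP- libraries. In endoderm it was at 0.159, 0.774 and 0 CPM, below every cardiac library, and in hematopoietic mesoderm at 21.1, 0 and 6.70 CPM, from 88, 0 and 32 counts. The hematopoietic libraries thus ran from none to the cardiac range, while Foxc1 had 0 counts in all 3. The log2 differences from endoderm were 5.74 ± 1.91 (SE) for the YFP+ and 5.81 ± 1.92 for the YFP- fraction, and those from hematopoietic mesoderm were 0.94 ± 1.55 and 1.00 ± 1.55. Foxc2 did not separate the cardiac fractions, with a difference of -0.06 ± 1.53.

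Foxh1, the Nodal pathway's forkhead factor, was expressed in all 4 types. It stood at 61.6, 34.9 and 71.7 CPM in the YFP+ cardiac libraries, at 54.8, 97.6 and 43.3 CPM in the YFP- libraries and at 30.3, 14.5 and 19.7 CPM in endoderm. The lowest cardiac library was above the highest endoderm library. Hematopoietic mesoderm ran from 2.40 through 35.2 to 54.8 CPM and overlapped with each other type. The cardiac means of 56.1 ± 19.1 and 65.2 ± 28.6 CPM (SD, n = 3) were 2.61-fold and 3.04-fold above the endoderm mean of 21.5 ± 8.06 CPM, with log2 differences of 1.39 ± 0.82 (SE) and 1.6 ± 0.82. Both differences were smaller than 2 standard errors. The log2 difference of endoderm minus hematopoietic mesoderm was -0.52 with all libraries and 0.18 without hematopoietic replicate 3, when the hematopoietic mean was 18.8 CPM.

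Foxp1 was detected in every library. Its libraries stood at 103, 86.5 and 189 CPM in the YFP+ cardiac fraction, at 52.3, 118 and 105 CPM in the YFP- fraction and at 76.9, 97.8 and 82.2 CPM in endoderm. Hematopoietic mesoderm had 43.5, 4.66 and 109 CPM. With all libraries every pair of types overlapped, and the fitted log2 differences ran from 0.10 ± 0.73 (SE), YFP- cardiac mesoderm minus endoderm, to 1.27 ± 0.74, YFP+ cardiac minus hematopoietic mesoderm. The level in hematopoietic mesoderm rested on replicate 3. Without it, the log2 difference from hematopoietic mesoderm moved from 1.27 to 2.40 for the YFP+ fraction, from 0.81 to 1.94 for the YFP- fraction and from 0.71 to 1.85 for endoderm, and every library of those types lay above the other 2 hematopoietic ones. Gm20696, which shares exon sequence with Foxp1, averaged 2.85 to 29.3 CPM by type.

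Compared per kilobase of exon, with all annotated exons of a gene merged, the order of the levels changed with the cell type. The merged length was 13751 bases from 31 transcripts for Foxp1, against 2415 bases from 1 transcript for Foxf1. The place of Foxp1 on this scale, and the shares of forkhead genes given below, therefore depend on which transcripts are annotated. In the YFP- cardiac fraction Foxf1 averaged 70.9 ± 17.2 CPM per kilobase (SD, n = 3), Foxh1 47.8 ± 21.0, Fendrr 21.6 ± 4.37, Foxc2 6.81 ± 2.28, Foxp1 6.65 ± 2.52 and Foxc1 2.68 ± 0.697 CPM per kilobase. In the YFP+ fraction the order began in the same way, with Foxf1 at 51.2 ± 24.3, Foxh1 at 41.1 ± 14.0 and Fendrr at 29.4 ± 8.77 CPM per kilobase. Foxf1 and Foxh1 overlapped in both fractions, as did Foxp1 and Foxc2, while every Fendrr library lay above every Foxp1, Foxc2 and Foxc1 library. Foxh1 and Fendrr overlapped in the YFP+ fraction and did not in the YFP- fraction. In endoderm Foxh1 led at 15.7 ± 5.91 CPM per kilobase, then Foxp1 at 6.23 ± 0.791, and the other 6 were below 0.5. In hematopoietic mesoderm Foxh1 also had the highest mean, 22.6 ± 19.4 CPM per kilobase, followed by Fendrr at 6.54 ± 10.9 and Foxp1 at 3.81 ± 3.84, with spreads as large as the levels of the latter pair. Without replicate 3 of that type the means were 13.8 CPM per kilobase for Foxh1, 3.88 for Foxc2, 1.75 for Foxp1, 1.66 for Foxf1 and 0.233 for Fendrr, so that Fendrr's place in this order rested on that library.

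**Figure D3:**
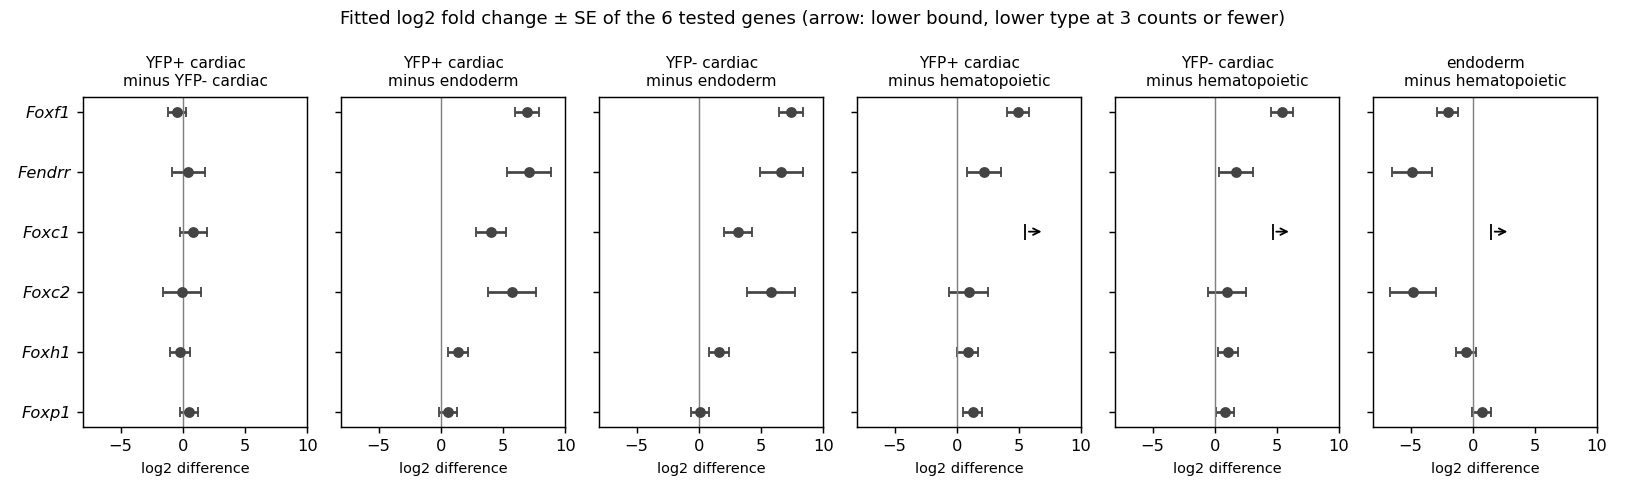
Fitted log2 difference, first type minus second, of the 6 tested genes in the 6 pairs of cell types, with whiskers of 1 SE; arrows start at the lower bound for Foxc1, whose hematopoietic libraries are all at 0 counts. Foxf1 and Fendrr lie near 7 against endoderm in both cardiac fractions, and the 6 genes lie between -0.47 and 0.85 between the fractions.

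Set beside the whole table, the counts of these genes past the threshold were as follows. A gene was called at an adjusted p under 0.05 in edgeR's quasi-likelihood test, with Benjamini-Hochberg adjustment over the 14170 genes. Between the cardiac fractions 0 of the 6 tested members were called, 0 also at an unadjusted p under 0.05 and 0 by DESeq2 or limma voom. The background there was 0.0% of all genes, although 1062 had an unadjusted p under 0.05 and DESeq2 called 229. Against endoderm, 1 of 6, Foxf1, was called higher in each fraction, beside 0.953% of all genes called higher in the YFP+ and 0.706% in the YFP- fraction. Against hematopoietic mesoderm, 2 of 6, Foxf1 and Foxc1, were called higher in each fraction, beside 1.15% and 0.402% of all genes. Foxc1 was also called higher in endoderm than in hematopoietic mesoderm, beside 3.23% of all genes. Over the alternative analyses, the calls of Foxf1 against endoderm held in 19 of 19 for each fraction, and against hematopoietic mesoderm in 17 for YFP+ and 14 for YFP-. Those of Foxc1 against hematopoietic mesoderm held in 17 of 19 for YFP+, 10 of 19 for YFP- and 5 of 18 for endoderm. With a block for the replicate number, Fendrr was also called against endoderm for YFP+, and Foxc1 was no longer called in YFP- or in endoderm against hematopoietic mesoderm. Without hematopoietic replicate 3, Fendrr was also called in each cardiac fraction against endoderm and against hematopoietic mesoderm, and Foxc1 was not called in endoderm against hematopoietic mesoderm.

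By overlap of the libraries alone, 5 of the 6, all but Foxp1, lay wholly higher in either cardiac fraction than in endoderm, beside 10.9% of all tested genes for the YFP+ and 12.2% for the YFP- fraction. Against hematopoietic mesoderm 3 did so for the YFP+ fraction (Foxf1, Foxc1 and Fendrr), beside 8.12% of all genes, and 2 for the YFP- fraction (Foxf1 and Foxc1), beside 11.8%. Foxc1 alone lay wholly higher in endoderm than in hematopoietic mesoderm, beside 23.4%. These counts rested in part on hematopoietic replicate 3. Without it 4 lay wholly higher in the YFP+ fraction (Foxp1 in addition), beside 13.2% of all genes, 5 in the YFP- fraction (all but Foxc2), beside 18.6%, and 2 in endoderm (Foxc1 and Foxp1), beside 31.5%. Between the fractions 0 did, beside 12.1% in either direction. The median log2 difference of the 6 was 4.88 for the YFP+ and 4.48 for the YFP- fraction against endoderm, beside 0.01 for all genes in both. It was 1.72 and 1.41 against hematopoietic mesoderm, beside 0.03 and 0.02. With Foxc1 set at its lower bound these last medians were 1.72 and 1.40, and without hematopoietic replicate 3 they were 3.65 and 3.66. The comparisons share libraries and are not independent, and since the members were chosen on these levels nothing is read from the counts.

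The other forkhead genes showed where these 8 sit in the family. Of 37 other forkhead genes in the files, 24 were tested. Compared with hematopoietic mesoderm, 5 were higher in endoderm (edgeR; 2 without hematopoietic replicate 3), namely Foxj1, a factor of ciliated cells, the endoderm factors Foxa1 and Foxa2, and Foxd3 and Foxr2. Foxj1 averaged 80.4 ± 20.1 CPM (SD, n = 3) in endoderm, 0.498 CPM in the YFP+ cardiac fraction, 0 in the YFP- fraction and 0.230 CPM in hematopoietic mesoderm. Foxa1 averaged 54.2 ± 7.31 CPM in endoderm and at most 0.337 CPM in the other types. Foxj1 was lower in both cardiac fractions than in endoderm, with edgeR adjusted p of 0.0123 for YFP+ and 0.00320 for YFP-, and Foxa2 was lower in the YFP- fraction, at 0.0233. Of all genes, 0.586% were called lower in the YFP+ and 0.6% in the YFP- fraction. Foxo3, a factor of stress and growth control, averaged 231 ± 58.9 CPM in the YFP+ fraction and 74.2 ± 27.0 CPM in hematopoietic mesoderm. That was a log2 difference of 1.64 ± 0.29 (SE) with an edgeR adjusted p of 0.0155. Foxo3 was the 1 gene of the 24 called in that comparison, beside 1.15% of all genes called higher in the YFP+ fraction.

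The median log2 difference of the 24 from endoderm was -1.64 for the YFP+ and -2.83 for the YFP- fraction, or -1.64 and -2.70 with genes at the floor set to their bound. The members' medians above had the opposite sign, and since the members were chosen on these levels nothing is read from that. Between the cardiac fractions 0 of the 24 were called by edgeR, 3 were at an unadjusted p under 0.05 and 2 were called by DESeq2. In the YFP- fraction against hematopoietic mesoderm 0 were called, with 6 at an unadjusted p under 0.05 and 1 by DESeq2.

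Of the summed per-kilobase level of all 44 forkhead genes, the 7 forkhead members made up 34.1% ± 8.11 (SD, n = 3) in the YFP+ fraction and 40.6% ± 6.10 in the YFP- fraction. They made up 7.15% ± 1.86 in endoderm and 16.5% ± 12.1 in hematopoietic mesoderm. The hematopoietic libraries held 6.05%, 13.8% and 29.7%, the first within the endoderm range of 5.77% to 9.27%, and the mean without replicate 3 was 9.94%. Foxf1 alone held 16% ± 8.87 in the YFP+ and 21.3% ± 2.49 in the YFP- fraction, against 0.135% in endoderm and 0.823% in hematopoietic mesoderm. Forkhead genes above 3 counts numbered 18.3 ± 2.52 and 19.0 ± 2.00 per library in the cardiac fractions, 28.3 ± 2.08 in endoderm and 16.3 ± 0.577 in hematopoietic mesoderm. Endoderm libraries, which also held epiblast and neurectoderm markers, had more forkhead genes detected than each other type, without adjustment for depth. The share from these 7 was smaller there than in either cardiac fraction. Since the 7 were chosen with these levels known, nothing is read from their share.

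**Figure D4:**
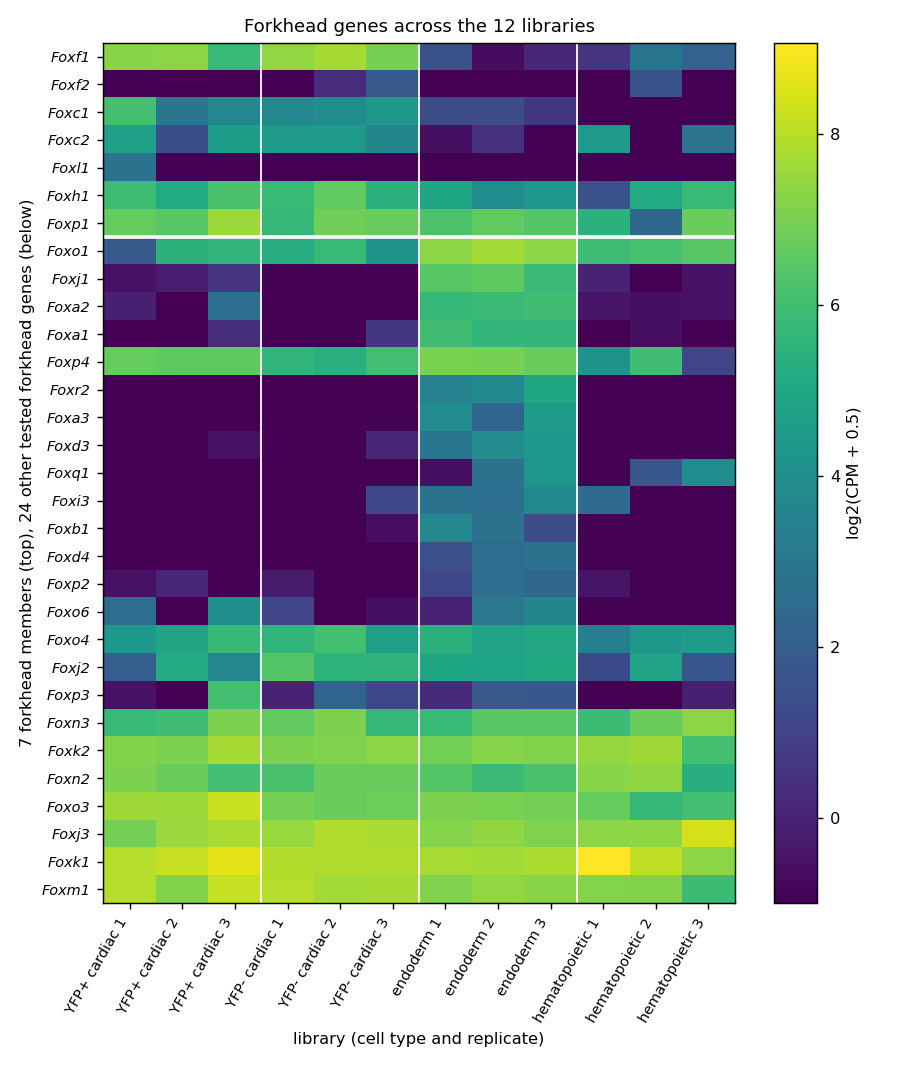
Level of the 7 forkhead members (above the white line) and the 24 other tested forkhead genes (below it, ordered by the difference of endoderm minus cardiac mean) in the 12 libraries, as log2(CPM + 0.5). Foxf1, Foxc1 and Foxc2 are bright in cardiac columns and dark in endoderm columns, whereas Foxj1, Foxa1 and Foxa2 show the reverse.

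Lateral plate and extraembryonic mesoderm is the setting in which Foxf1 and Fendrr are best known. Of 20 genes listed for it, 16 were tested. Against endoderm 7 were higher in the YFP+ fraction and 5 in the YFP- fraction by edgeR, beside 0.953% and 0.706% of all genes, and 0 were called lower. Among those not called, Bmp2, a ligand gene, had log2 differences of -0.97 and -0.47. The transcription factor Tbx20 averaged 520 ± 163 and 387 ± 34.3 CPM (SD, n = 3) in the YFP+ and YFP- fractions, 47.9 ± 3.67 CPM in endoderm and 328 ± 166 CPM in hematopoietic mesoderm. Its edgeR adjusted p against endoderm was 0.000183 for the YFP+ and 0.000374 for the YFP- fraction. Tbx3, Ahnak, an allantois and membrane scaffold gene, and the ligand Bmp4 were also higher in both fractions, and Gata4 was higher in the YFP+ fraction, with edgeR adjusted p of 0.0161.

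Against hematopoietic mesoderm the counts depended on 1 library. For the YFP+ fraction 0 of the 16 were called, with 5 at an unadjusted p under 0.05 and 4 by DESeq2, and for the YFP- fraction 0 were called, with 4 and 2. Without hematopoietic replicate 3 edgeR called 6 and 1. Its calls over all genes, in either direction, rose at the same time from 253 and 84 to 426 and 219. Bmp4 averaged 130 ± 51.0, 159 ± 28.9 and 193 ± 72.6 CPM (SD, n = 3) in the YFP+, YFP- and hematopoietic cells. The list's median log2 difference was 0.91 and 0.56, beside 0.03 and 0.02 for all genes, and 1.59 and 1.11 without that library. Tbx20, Tbx3, Ahnak and Bmp4 were higher in hematopoietic mesoderm than in endoderm, among 5 such genes, beside 2.42% of all genes. Prrx1 of the list went the other way, at 2.36 ± 0.672 CPM in endoderm and 0 in hematopoietic mesoderm. Its edgeR adjusted p was 0.0450, and 3.23% of all genes were called higher in endoderm.

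Paraxial and presomitic mesoderm is the setting of Foxc1 and Foxc2. Of 17 genes listed for it, 10 were tested. By edgeR 3 were higher in both cardiac fractions than in hematopoietic mesoderm. They were the Notch ligand genes Dll1 and Dll3 and the early mesoderm factor Mesp1, which is also among the cardiac markers summed above. Of all genes, 1.15% were called higher in the YFP+ and 0.402% in the YFP- fraction. Dll1 and Dll3 were also called higher in endoderm than in hematopoietic mesoderm, beside 3.23% of all genes. Dll1 averaged 82.5 ± 53.8 and 72.5 ± 12.9 CPM (SD, n = 3) in the YFP+ and YFP- fractions, 14.1 ± 10.4 CPM in endoderm and 0.207 CPM in hematopoietic mesoderm. Its means in the YFP+ and YFP- fractions were at least 133-fold and at least 117-fold higher than the hematopoietic floor, with edgeR adjusted p of 0.00384 and 0.00550. Against endoderm 0 of the 10 were called in either fraction, with 5 at an unadjusted p under 0.05 in each. DESeq2 called 5 for the YFP+ and 4 for the YFP- fraction. Hes7, Pax7 and Tcf15 of this list had their highest means in endoderm, at 10.6, 15.8 and 4.83 CPM. Their cardiac means were at most 0.0691, 4.33 and 0.0481 CPM, and Tcf15 averaged 0.870 CPM in hematopoietic mesoderm. In the hematopoietic comparisons the list's median was 2.55 for the YFP+ and 2.90 for the YFP- fraction, 3.26 and 3.50 with genes at the floor set to their bound, and 4.72 and 4.92 without hematopoietic replicate 3.

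Of 21 genes that act with Foxh1 in Nodal signalling and were found in the files, 19 were tested. Against hematopoietic mesoderm edgeR called 3 for the YFP+ and 2 for the YFP- fraction, or 7 and 5 without hematopoietic replicate 3. Without that library the calls over all genes, in either direction, were 426 and 219, against 253 and 84 with it. With all libraries, 1.15% and 0.402% of all genes were called higher in these fractions. Nodal itself, the ligand, averaged 41.6 ± 13.0 CPM (SD, n = 3) in endoderm, 3.14 ± 5.43 CPM in the YFP+ fraction, 0.383 ± 0.548 CPM in the YFP- fraction and 0 in hematopoietic mesoderm. Lefty2, a secreted Nodal antagonist and known Foxh1 target, averaged 93.2 ± 38.3 and 88.6 ± 40.6 CPM in the YFP+ and YFP- fractions, 16.6 ± 7.74 CPM in endoderm and 0.460 ± 0.241 CPM in hematopoietic mesoderm. It was higher in the YFP+ and YFP- fractions than in hematopoietic mesoderm, with edgeR adjusted p of 0.000883 and 0.000958. The LIM factor gene Lhx1 was likewise higher in both fractions. The coreceptor gene Cfc1 was called higher in the YFP+ fraction, where it averaged 8.75 ± 2.60 CPM. In the YFP- fraction Cfc1 averaged 13.45 ± 17.0 CPM, with an edgeR adjusted p of 0.0514. Its log2 difference between the fractions was -0.62 ± 1.16 (SE). Lefty2, Lhx1 and Cfc1 were also called higher in endoderm than in hematopoietic mesoderm, beside 3.23% of all genes.

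Nodal thus had its highest mean in endoderm. The summed epiblast and primitive streak markers of the endoderm libraries, 853 to 1099 CPM, overlapped with those of each other type. Of that list, Utf1 was at 108 to 116 CPM in endoderm and at most 19.7 CPM elsewhere. Eomes was at 274 to 306 CPM in endoderm, below every cardiac library. Every Foxh1 library of endoderm was below every cardiac one. The signal-carrying Smad2 averaged 121 ± 59.7, 147 ± 31.4, 130 ± 17.0 and 171 ± 35.5 CPM in the YFP+, YFP-, endoderm and hematopoietic cells. Smad4 averaged 137 ± 58.6, 200 ± 11.5, 162 ± 26 and 182 ± 68.9 CPM in the same order. Against endoderm 0 of the 19 were called in either fraction, with 5 and 4 at an unadjusted p under 0.05 and 2 by DESeq2 in each.

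Of 18 listed genes of the chromatin complexes reported to bind Fendrr, 17 were tested. Phf19, the gene not tested, had 0 counts in all cardiac and hematopoietic libraries, and Phf1 had 0 counts in hematopoietic replicate 3. Jarid2, a Polycomb cofactor, was the 1 gene called by edgeR. DESeq2 called 2 of the list for the YFP+ fraction and 4 for endoderm against hematopoietic mesoderm, and limma voom called 0 and 2. It averaged 273 ± 72.2, 219 ± 29.5, 416 ± 21.1 and 128 ± 24.1 CPM (SD, n = 3) in YFP+ cardiac, YFP- cardiac, endoderm and hematopoietic cells. It was higher in endoderm and in the YFP+ fraction than in hematopoietic mesoderm, with edgeR adjusted p of 0.00127 and 0.0303. The Polycomb enzyme gene Ezh2 averaged 294 ± 55.3, 300.4 ± 17.9, 286 ± 45.3 and 274 ± 56.8 CPM, and the Trithorax-type gene Kmt2a 743 ± 109, 629 ± 24, 653 ± 57.6 and 674 ± 83.0 CPM, in the same order. The list's median log2 difference from endoderm was 0.04 for the YFP+ and 0.07 for the YFP- fraction, where that of Fendrr was 7.08 and 6.64.

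The genes whose log2(CPM + 0.5) was most like that of each member were found by Pearson correlation over the 12 libraries, among 10355 tested genes with a mean of at least 10 CPM in some type. The libraries of a type share their source, so the values of r mostly describe how types differ. For Foxf1 they were Hand2, a lateral mesoderm and heart factor (r = 0.953), Klhl6 (0.938) and the mesoderm receptor gene Pdgfra (0.933), itself taken as a sort gene. Hand2 averaged 44.0 ± 9.01 and 27.9 ± 1.00 CPM (SD, n = 3) in the YFP+ and YFP- fractions, 0.601 ± 0.718 CPM in endoderm and 3.41 ± 5.12 CPM in hematopoietic mesoderm. For Fendrr they were Braf (0.968), Zfp423 (0.965) and the mesenchymal cadherin gene Cdh11 (0.963). Cdh11 averaged 345 ± 35.6, 409 ± 25.9, 51.1 ± 5.99 and 179 ± 154 CPM in YFP+ cardiac, YFP- cardiac, endoderm and hematopoietic cells.

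For Foxc1 the nearest genes were Pcdh19 (r = 0.954), Dll1 (0.952) and Sdk2 (0.944), and each had a mean of at most 0.702 CPM in hematopoietic mesoderm. Pcdh19, a protocadherin gene, averaged 227 ± 76.7 and 213 ± 61.0 CPM (SD, n = 3) in the YFP+ and YFP- fractions. For Foxc2 they were Epm2aip1 (0.914), Sh3bgrl (0.903) and Rps10 (0.888), and for Foxh1 H6pd (0.932), Tcf7 (0.905) and Mfap4 (0.899). For Foxp1 they were Smpd2 (0.934), Emb (0.914) and Mycl (0.910). The nearest genes of the 6 members were all different.

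Within 200 kb of the 8 genes the annotation holds 59 other genes, of which 45 were in the files and 23 were tested, 18 of them around Foxh1. The lowest edgeR adjusted p of any of these 23 over the 6 pairs of types was 0.0672. A p above the threshold does not show that a neighbour's level was the same in each type.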

How the data were processed

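RNA from 12 sorted-cell libraries (4 types, 3 each, grouped by the sample titles) was purified with the Agilent Absolutely RNA nanoprep kit and amplified with NuGEN low-input kits, per the labels' protocols. The authors deposited whole-number counts per gene, without normalization. STAR 2.5.0a, Picard, HTSeq 0.6.0, DESeq2 and the build mm10 are named in the submitters' processing notes. The strand setting is not given in the sources used here, and reads in no gene, in several genes or aligned to several places were left out of library sizes. Such reads lower the counts of genes with close copies. Symbols were found for 37607 of the 38924 genes, and positions and exon lengths came from GENCODE M21 (GRCm38).

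Counts were fitted with edgeR 4.0.16 in R 4.3.3 (TMM scaling, default expression filter, quasi-likelihood F test, 1 coefficient per type over all 12 libraries, 8 residual degrees of freedom). Each of the 6 pairs was tested two-sided, with Benjamini-Hochberg adjustment over the 14170 genes and a threshold of 0.05. Standard errors were derived from the log2 difference and the F statistic. Folds against a type with at most 3 counts in every library were computed against that floor, which covers only counting error because reads amplified without molecular identifiers do not stand for separate molecules. The members, the gene and marker lists and the tests were chosen with earlier results of these data known. All members were described, with up to 5 called genes per list by smallest adjusted p, every annotated gene within 200 kb, and the 3 genes most like each member by correlation. A few list genes outside that rule (Nodal, Smad2, Smad4, Bmp2, Prrx1, Hes7, Pax7, Tcf15, Ezh2, Kmt2a, Phf1 and Phf19) and some markers were picked with their values known.

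The alternatives were RLE scaling, a mean of 5 CPM in some type as filter, no filter at all, DESeq2 1.42.0, a block for the replicate number, only the 2 types compared, limma 3.58.1 voom with quality weights, and leaving out each library. The procedure was tested on simulated data for the comparison of the cardiac fractions. It called 5 of 50 genes changed 2-fold, 10 of 50 at 4-fold, 24 of 49 at 8-fold and 25 of 50 at 16-fold, and 4 of 13448 unchanged genes.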

Additional observations from a re-analysis of the deposited data

How the results depend on the processing

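Settings are given in the order YFP+ minus YFP- cardiac mesoderm, then YFP+ and YFP- against endoderm, YFP+ and YFP- against hematopoietic mesoderm, and endoderm against hematopoietic mesoderm. The main analysis called 0, 218, 185, 253, 84 and 800 genes and 0, 1, 1, 2, 2 and 1 members in these pairs. DESeq2 called 229, 1180, 754, 1817, 1351 and 2246 genes, and 4, 4 and 3 members against endoderm (YFP+, YFP-) and in the last pair. With only the types compared, 1063, 1365, 13, 10 and 1258 genes were called in the last 5 pairs, and 2, 5, 0, 0 and 0 members. Limma voom called 1130, 1812, 18 and 1225 genes in the second, the third, the fourth and the last pair, and 4, 5, 0, 1 and 0 members in the last 5 pairs. Without the expression filter 2 genes were called between the fractions and 174 for YFP- against hematopoietic mesoderm, with 2 members against endoderm in each fraction. Same-numbered libraries share a date-like string in the names of their deposited files, whose meaning the labels do not give, so a shared day cannot be told apart from the replicate number. They did not deviate together (18 pairs, correlations -0.0168 to 0.0336). The fit with the replicate block called 133 and 31 genes for YFP+ and YFP- against hematopoietic mesoderm, and 2, 1 and 0 members for YFP+ against endoderm, YFP- against hematopoietic mesoderm and the last pair. Leaving out each library gave 0 to 1, 71 to 404, 69 to 327, 106 to 426, 16 to 247 and 180 to 976 genes, and 0, 1 to 2, 1 to 2, 2 to 3, 0 to 3 and 0 to 1 members. The cause of these shifts was not tested, beyond the fewer libraries in some fits.

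Of 681 recomputed log2 differences of members, 17 moved by more than 1 SD and 0 called ones changed sign. The sign changed in some setting in 5 of 36 comparisons, all uncalled (Foxc1, Foxc2 and Foxh1 between the fractions, Foxh1 between endoderm and hematopoietic mesoderm, Foxp1 in YFP- against endoderm). Without hematopoietic replicate 3, Fendrr passed the threshold against hematopoietic mesoderm with edgeR adjusted p of 0.0135 (YFP+) and 0.0231 (YFP-). List counts stayed within 1.5 times in 434 of 570 recomputations. Depth set a floor of 0.355 to 0.720 CPM, so Foxf2 and Foxl1 could not be followed below it.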
